A study of Mus musculus with 16 samples.

Results

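Polysome RNA from replicates 1 and 2 differed in its make-up from polysome RNA of replicates 3 and 4, and the difference followed the length of the coding sequence. mRNAs with long coding sequences stood higher in replicates 1 and 2, and short mRNAs stood higher in replicates 3 and 4, with the histone mRNAs at the far end. The comparison takes the 8 polysome samples of a series of 16 samples, 4 from replicates 1 and 2 and 4 from replicates 3 and 4. The replicate sets were chosen by the polysome counts themselves, which set them apart, so every polysome difference between them is given as a description with no test. The matched input samples played no part in that choice, and there the same contrast was tested.

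The cells were 46C mouse embryonic stem cells (ESCs), a line from strain 129Ola that carries GFP at the Sox1 locus, grown with leukaemia inhibitory factor. All were transfected for 48 hr with an siRNA against RAM, the activating subunit of the cap methyltransferase RNMT, or with a non-targeting control siRNA. Each siRNA had 4 replicates, described as biological by the study, and each culture gave an input library and a polysome library. Input was cytoplasmic lysate taken before a sucrose gradient, and polysome RNA was pooled from gradient fractions 17 to 22. All cultures received cycloheximide before lysis. Input RNA was extracted with Trizol, whereas polysome RNA was extracted with phenol and chloroform and precipitated with LiCl, so fraction and extraction cannot be told apart. All of the cells were of 1 line, and the sources used here do not give separate dates or operators for the replicates.

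In a sucrose gradient an mRNA sediments further the more ribosomes it carries. The number of ribosomes an mRNA can hold grows with the length of its coding sequence, so short mRNAs on small polysomes sit closer to the monosomes than long mRNAs do. Which part of a gradient is pooled, how well it resolves and how actively the cells initiate translation can all set which mRNAs a polysome library holds. ESCs divide fast and carry much mRNA for ribosomal proteins, for the respiratory chain and, in S phase, for the replication-dependent histones, and these are all short messages.

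The deposited counts totalled 16647523 to 20147833 per library. Of 46983 genes listed, 12896 reached 1 CPM (counts scaled to library size) in at least 4 of the 8 polysome libraries. The summed level of 10 ESC markers was 3956 to 6709 CPM in polysomes of replicates 1 and 2 and 7022 to 7911 CPM in replicates 3 and 4. In input the same sums overlapped, at 4718 to 5664 and 4397 to 5381 CPM. In bulk samples, fewer cells of a type and less RNA per cell cannot be told apart. Ramac, the gene that encodes RAM (ENSMUSG00000038646, chromosome 7, 81762925 to 81769491, mm10), was lower in the RAM siRNA library than in its control in all 8 same-numbered pairs of input or polysome libraries, in the direction that the labels give.

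The 8 polysome libraries did not fall into 2 tight clusters. On the first principal component, which held 58.9% of the variance, control replicates 1 to 4 scored 17.5, 33.2, -16.5 and -34.2, and RAM siRNA replicates 1 to 4 scored 8.54, 66.3, -29.2 and -45.7. The sign separated the replicate sets, but RAM siRNA replicate 2 stood apart from the other 7 libraries. The median absolute log2 difference over genes was 0.265 to 0.723 between polysome libraries of different sets. It was 0.166 to 0.401 between different numbers of the same set and 0.197 to 0.315 between siRNAs of the same number, so the ranges overlapped. Input libraries lay closer together, at 0.117 to 0.232 (median 0.192) between sets and 0.0955 to 0.253 (median 0.188) between different numbers of the same set. Between siRNAs of the same number input gave 0.156 to 0.175. The replicate sets were thus not set apart in input by this measure. The largest input value, 0.253, lay between RAM siRNA replicate 3 and control replicate 4. The main classes below are also given without polysome RAM siRNA replicate 2, a setting chosen after the data were seen.

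Over the 12896 genes, the log2 differences in polysomes (replicates 1 and 2 minus replicates 3 and 4, with siRNA as a factor) had a median of -0.04 and an SD of 0.57. In input the median was -0.01 and the SD 0.17. Using a difference of at least 1 on the log2 scale and no overlap between the 4 libraries of each set, 391 genes stood higher in replicates 1 and 2 (3.03% of genes) and 428 lower (3.32%). With no size limit, 1701 genes (13.2%) were higher without overlap and 2288 (17.7%) lower. Without polysome RAM siRNA replicate 2, 151 genes were higher and 190 lower by the same 2-fold rule. Control libraries alone gave 524 genes in both directions together and RAM siRNA libraries alone gave 1744. Those fits set 2 libraries against 2, where no overlap is easier to meet than with 4 against 4. Their counts are therefore not comparable with 391 and 428.

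Coding length separated the 2 sets of genes. Of the 391 higher genes, 362 were protein coding with a median coding sequence of 5391 bases, and 303 of these (83.7%) exceeded 3000 bases. Of the 428 lower genes, 360 were protein coding with a median of 411 bases, and 335 of these (93.1%) had at most 900 bases. Across all 12220 coding genes tested the median was 1425 bases, with 14.6% over 3000 bases and 25.3% at most 900. Only 2 higher genes had at most 900 bases and only 2 lower genes had more than 3000.

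The median difference climbed with each step of coding length above 300 bases, where each class leaves out its lower bound. It was -0.72 for 185 genes of at most 300 bases, -0.79 for 1265 genes of 300 to 600 bases and -0.47 for 1638 genes of 600 to 900 bases. Near the middle of the range it was -0.12 at 900 to 1500 bases (3408 genes) and 0.22 at 1500 to 3000 bases (3941 genes). It reached 0.55 at 3000 to 6000 bases (1440 genes) and 0.99 above 6000 bases (343 genes). In input the medians of the same classes ran from -0.05 to 0.08. Without replicate 2 the polysome medians were 0.14 at 1500 to 3000 bases and 0.31 at 3000 to 6000 bases, and without replicate 4 the median at 300 bases or fewer was -0.42.

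**Figure D1:**
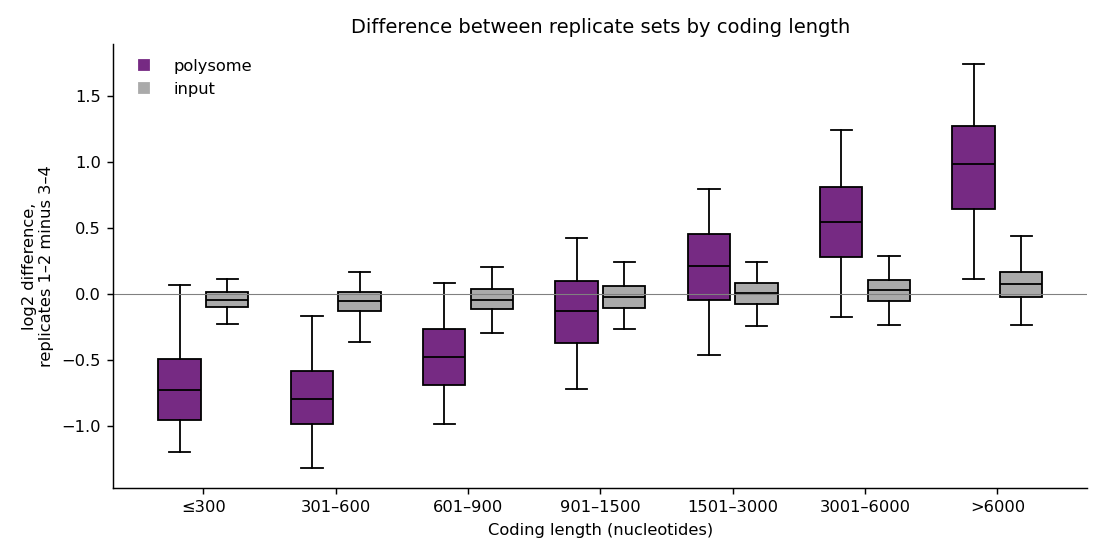
Log2 difference, replicates 1 and 2 minus replicates 3 and 4 (vertical axis), by class of coding length in nucleotides (horizontal axis), over all coding genes tested. Boxes show the median and quartiles over genes, with whiskers at the outer 5%, for polysome and input. Polysome medians go from -0.72 at 300 bases or fewer to 0.99 above 6000 bases, while input medians lie between -0.05 and 0.08.

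Above 6000 bases, 143 of the 343 genes (41.7%) stood higher by the 2-fold rule and 0 lower, a description with no test. In the class of 300 to 600 bases, 250 of 1265 (19.8%) stood lower and 1 higher, against 3.32% and 3.03% of all genes. Without polysome RAM siRNA replicate 2 the medians of these classes were 0.67 and -0.66. Without replicate 2 altogether they were 0.50 and -0.64, so that library and its control carried much of the difference above 6000 bases.

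Over 12220 coding genes Spearman's rank correlation between the polysome difference and coding length was 0.755, against 0.220 for the input difference over 12000 genes. Genes share libraries and are not independent replicates, so no p is given. The relation was 0.617 with the length of the longest coding transcript, 0.209 with 3′ UTR length, 0.0671 with 5′ UTR length, -0.254 with the GC share of that transcript and 0.0976 with mean polysome CPM. It was 0.708 in control libraries alone and 0.761 in RAM siRNA libraries alone, and 0.715 without polysome RAM siRNA replicate 2.

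Each polysome library had its own slope on length. Relative to the mean of the 8 libraries, the slope of log2 CPM per doubling of coding length was 0.097, 0.201, -0.105 and -0.197 in control replicates 1 to 4. In RAM siRNA replicates 1 to 4 the slopes were 0.044, 0.417, -0.182 and -0.275. The 4 libraries of replicates 1 and 2 were all positive and the 4 of replicates 3 and 4 all negative, with replicate 1 nearest to 0 and RAM siRNA replicate 2 the steepest. The means were 0.190 ± 0.165 and -0.190 ± 0.0698 (SD, n = 4 each).

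**Figure D2:**
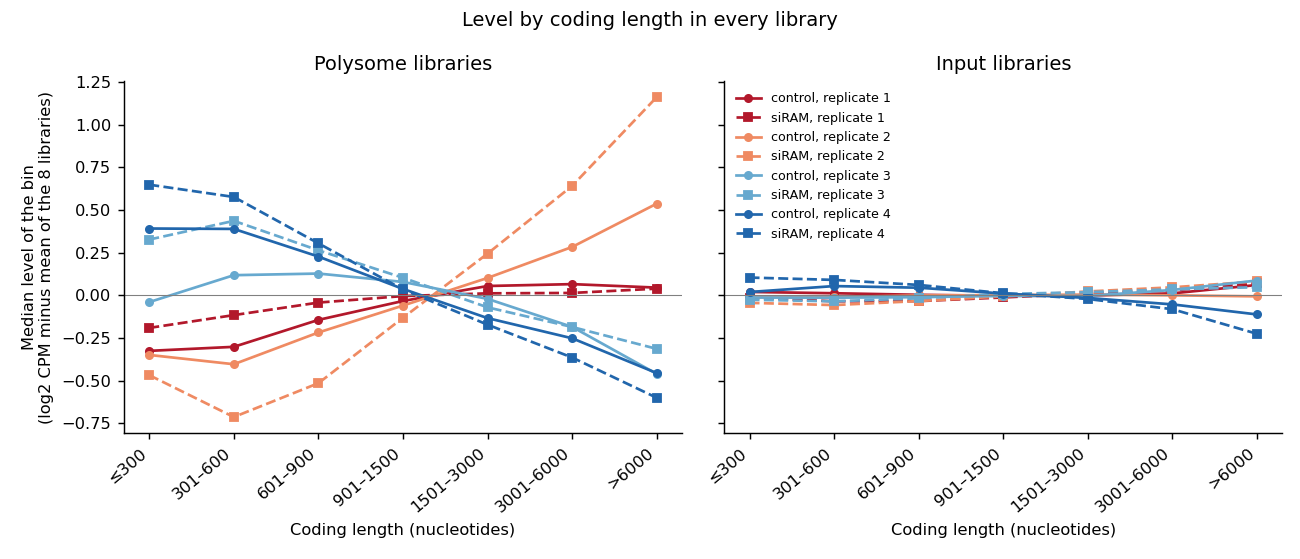
Median log2 CPM of each coding length class minus the mean of the 8 libraries of that fraction (vertical axis) against class of coding length in nucleotides (horizontal axis), 1 line a library, coloured by replicate, solid for control and dashed for RAM siRNA. Polysome libraries fan out from RAM siRNA replicate 2, with a slope of 0.417 per doubling, to RAM siRNA replicate 4, with -0.275, whereas input libraries stay close to flat.

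In input, the slopes were 0.001, 0.001, 0.014 and -0.038 in control replicates 1 to 4, and 0.025, 0.035, 0.018 and -0.056 in RAM siRNA replicates 1 to 4. The mean was 0.0153 ± 0.0172 for replicates 1 and 2 and -0.0153 ± 0.0370 for replicates 3 and 4 (SD, n = 4 each). An exact two-sided permutation test over the 8 input libraries gave p = 0.229, where the smallest p possible was 0.0286. With same-numbered libraries averaged to 4 occasions the exact p was 0.667, where the smallest possible was 0.333. A length slope in input was therefore not detectable between the replicate sets with this design.

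The 10 genes with the largest differences in the direction of replicates 1 and 2 all had coding sequences of 4716 bases or more, and most encode large nuclear, chromatin or cytoskeletal proteins. They were Mki67, Peg3, Chd4, Sptan1, Brca2, Chd8, Cenpf, Ranbp2, Crybg3 and Ints1, with log2 differences from 1.92 to 2.54. Mki67 (ENSMUSG00000031004, chromosome 7, 135689784 to 135716361, mm10, minus strand), the proliferation antigen that coats mitotic chromosomes, has a coding sequence of 9534 bases. Its polysome level was 124, 213, 43.1 and 31.7 CPM in control replicates 1 to 4 and 119, 496, 49.8 and 31.97 CPM in RAM siRNA replicates 1 to 4. All 4 libraries of replicates 1 and 2 exceeded all 4 of replicates 3 and 4, a log2 difference of 2.54.

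Mki67 also differed in input. Its input level was 589, 527, 275 and 280.1 CPM in controls and 505, 506, 322 and 184 CPM with RAM siRNA, again without overlap. The input log2 difference was 1.00 ± 0.14 (SE; adjusted p = 0.0176, edgeR quasi-likelihood test over 8 libraries). With same-numbered input libraries summed the edgeR adjusted p was 0.304, and with the replicate as a block in limma it was 0.0505.

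Chd4, a chromatin remodelling ATPase of the NuRD complex (chromosome 6, 125095981 to 125130591, mm10), stood at 280.0, 623, 142 and 131 CPM in polysome controls and 269, 1209, 171 and 121 CPM with RAM siRNA. RAM siRNA replicate 2 was far above the other libraries, and the sets still did not overlap. The polysome log2 difference was 2.03, and without replicate 2 it was 0.96. Brca2, the recombination mediator, stood at 185, 409, 90.1 and 94.998 CPM in polysome controls and 134, 608, 86.4 and 69.3 CPM with RAM siRNA. In input its libraries overlapped, at 385 to 496 CPM and 286 to 478 CPM.

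A list of 39 genes with very long coding sequences, such as cytoskeletal linkers and giant enzymes, had 38 members past the expression filter and a median polysome difference of 1.27. 23 of the 38 (60.5%, against 3.03% of all genes) stood higher by the 2-fold rule and 0 lower. The list was chosen for length, and the other genes of the same length classes had a median of 0.94. Its share of all polysome counts was 0.266%, 0.448%, 0.154% and 0.154% in control replicates 1 to 4 and 0.268%, 0.807%, 0.203% and 0.153% with RAM siRNA. Without polysome RAM siRNA replicate 2 the median was 0.87.

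Among the listed giant coding sequences the climb with length was not seen. Within these 38 genes Spearman's rank correlation between coding length and the polysome difference was -0.662. Syne1, a nuclear envelope spectrin-repeat protein with 26400 coding bases, had a log2 difference of 0.57, at 3.20, 3.08, 1.66 and 1.94 CPM in polysome controls and 1.83, 2.83, 1.76 and 1.94 CPM with RAM siRNA. Its sets overlapped.

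**Figure D3:**
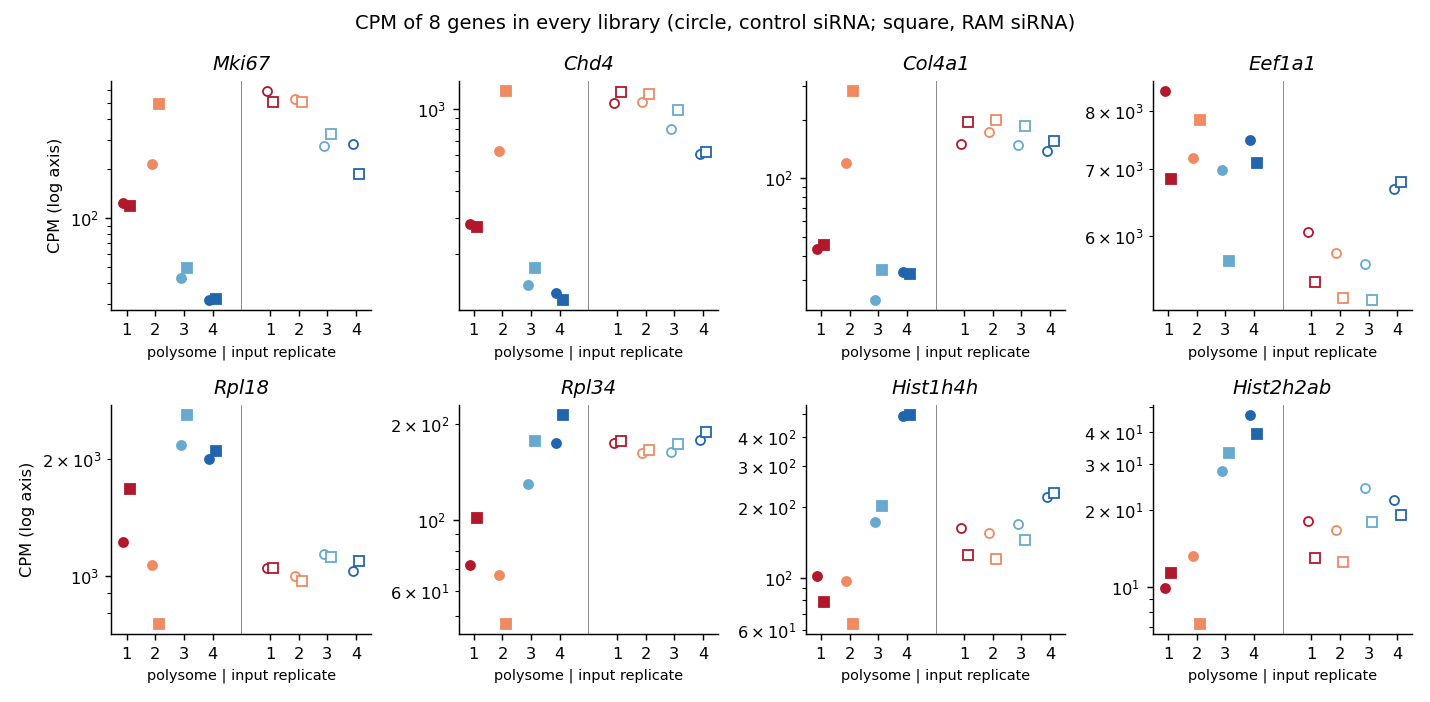
Polysome (filled) and input (open) levels in CPM on a log axis for Mki67, Chd4, Col4a1, Eef1a1, Rpl18, Rpl34, Hist1h4h and Hist2h2ab, 1 point a library, with circles for control and squares for RAM siRNA, coloured by replicate. Mki67 goes from 31.7 to 496 CPM in polysomes with replicates 1 and 2 on top, and Hist1h4h from 63.7 to 493 CPM with replicate 4 on top.

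At the other end of the length scale, the cytosolic ribosomal proteins stood lower in polysomes of replicates 1 and 2. 81 of 82 listed genes passed the filter, all 81 had a difference below 0, and 32 (39.5%, against 3.32% of all genes) stood lower by the 2-fold rule. Their median was -0.93, against -0.79 for other genes of the same length classes and -0.09 for the same ribosomal proteins in input. Without polysome RAM siRNA replicate 2 it was -0.75. The summed share of polysome counts was 4.47%, 3.84%, 5.76% and 6.92% in control replicates 1 to 4 and 4.86%, 2.59%, 6.17% and 7.49% with RAM siRNA. In input it was 4.82% to 6.06% and overlapped between the sets. Ribosomal protein genes have many processed pseudogenes, so reads may be split among copies and single values are uncertain.

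Rpl34, a protein of the large subunit (chromosome 3, 130726831 to 130730398, mm10) with 354 coding bases, stood at 72.5, 67.3, 129.5 and 174 CPM in polysome controls and 101, 47.4, 177 and 212 CPM with RAM siRNA. Replicates 3 and 4 were above replicates 1 and 2 in every library, a log2 difference of -1.25. In input it stood at 162 to 178 CPM in controls and 165 to 189 CPM with RAM siRNA, with overlap between the sets and a difference of -0.05.

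Rpl4, the longest ribosomal protein in the list with 1260 coding bases, had a polysome difference of -0.11 and overlapping sets. Its levels were 2202, 1848, 1998 and 2303 CPM in controls and 1869, 1595, 1658 and 2131 CPM with RAM siRNA. Within the 81 ribosomal protein genes the rank correlation with coding length was 0.592. The 57 members of at most 600 bases had a median of -1.02 and the 4 above 900 bases a median of -0.34.

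The respiratory chain and the mitochondrial ribosome showed the same gradient among their own subunits. Of 85 nuclear-encoded oxidative phosphorylation subunits 83 passed, with a median of -0.91 against -0.70 for other genes of the same length classes. By the 2-fold rule 25 of the 83 (30.1%, against 3.32% of all genes) stood lower and 0 higher. Without polysome RAM siRNA replicate 2 the median was -0.74. The summed share of the 85 subunits differed less, at 2.94%, 2.86%, 3.27% and 2.90% of polysome counts in control replicates 1 to 4. With RAM siRNA it was 3.19%, 2.70%, 3.34% and 3.13%. These shares overlapped between the sets, with means of 2.92% in replicates 1 and 2 and 3.16% in replicates 3 and 4. The 61 subunits of at most 600 coding bases had a median of -0.98, and the 12 above 900 bases a median of 0.25. Cox7b, a small cytochrome oxidase subunit with 243 coding bases, had a difference of -1.29, at 76.6, 78.4, 140.1 and 185 CPM in polysome controls and 96.8, 58.4, 203 and 239.7 CPM with RAM siRNA. Sdha, the catalytic subunit of succinate dehydrogenase with 1995 coding bases, went the other way, with 1099, 1192, 925 and 654 CPM in controls and 1204, 1677, 898 and 658 CPM with RAM siRNA. Each of these genes separated the replicate sets without overlap, in opposite directions.

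Among mitochondrial ribosomal proteins, 77 of 78 passed with a median of -0.76, or -0.59 without polysome RAM siRNA replicate 2. By the 2-fold rule 14 of the 77 (18.2%, against 3.32% of all genes) stood lower. The rank correlation with coding length was 0.810 over these 77. The 39 of at most 600 bases had a median of -0.95 and the 15 above 900 bases a median of -0.06. Mrpl36 and Mrpl34, both large-subunit proteins, had differences of -1.33 and -1.30, whereas Mrps31, a small-subunit protein of 1155 coding bases, had 0.22. The 7 mitochondrially encoded mRNAs that passed, of 13 listed, are translated on mitochondrial ribosomes and had a median of 0.01 in polysomes, with all sets overlapping. That median is a balance of replicates 3 and 4. Relative to the mean of the 8 polysome libraries, their level was 0.30 and 0.60 in control and RAM siRNA replicate 3 and -0.49 and -0.57 in replicate 4, and the median difference was 0.68 without replicate 3 and -0.35 without replicate 4.

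Replication-dependent histones stood furthest from the rest of the short mRNAs. Of 65 listed genes 54 passed, all 54 had a difference below 0, and 51 (94.4%, against 3.32% of all genes) stood lower by the 2-fold rule. Their median was -1.69, against -0.78 for other genes of the same length classes. The 10 largest differences in this direction were all histone genes, 9 of histone H4 and Hist1h2bp of histone H2B, from -1.87 to -2.11. Histone copies share most of their sequence, so how reads were divided among single genes is uncertain and the summed share is the firmer value.

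That summed share was 0.501%, 0.474%, 0.755% and 1.73% of polysome counts in control replicates 1 to 4 and 0.474%, 0.272%, 0.870% and 1.82% with RAM siRNA. In input it was 0.453%, 0.430%, 0.465% and 0.625% in controls and 0.377%, 0.354%, 0.403% and 0.657% with RAM siRNA. Replicate 4 was highest in both fractions, replicate 3 was above replicates 1 and 2 in polysomes, and the input sets overlapped. The part of the input difference in the polysome values was not tested. Hist1h4h (chromosome 13, 23531050 to 23531519, mm10, plus strand) stood at 101, 97.0, 173 and 491 CPM in polysome controls and 78.8, 63.7, 202 and 493 CPM with RAM siRNA, a log2 difference of -2.01.

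The histone difference was thus not 1 step between replicate sets. In polysomes, 50 of the 54 histone genes were higher in replicate 4 than in replicate 3, with a median log2 difference of 1.15, and 51 were higher in replicate 3 than in replicates 1 and 2, with a median of 1.01. In input the same medians were 0.55 and 0.15. Without replicate 4 the median polysome difference of the list was -0.95, and without polysome RAM siRNA replicate 2 it was -1.51.

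Replication-dependent histone mRNAs end in a conserved stem-loop in place of a poly(A) tail, and libraries made from total RNA after rRNA removal can capture them. The sense-strand sequences below come from GENCODE M21 transcripts (mm10) and show this element, in capitals, for 3 histone genes, 1 each of H4, H2B and H2A, to show how alike the copies are, with 5 bases on either side.
Hist1h4h: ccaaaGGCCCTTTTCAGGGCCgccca
Hist1h2bp: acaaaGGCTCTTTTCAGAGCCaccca
Hist1h2ad: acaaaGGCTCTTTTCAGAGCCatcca
The histone H4 copy differs from the H2A and H2B copies inside the stem, and the latter 2 share the whole capitalised stretch. A search for the histone stem-loop by its 16-base pattern in the last 200 bases of the annotated transcript, sense strand only, matched 21 of the 54 histone genes (38.9%) and 24 of 12217 coding genes in all (0.196%). The median polysome difference was -1.70 with a match and -1.64 for the 33 histone genes without one. A match describes the annotated transcript end and no match says only that the pattern was not in that window.

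**Figure D4:**
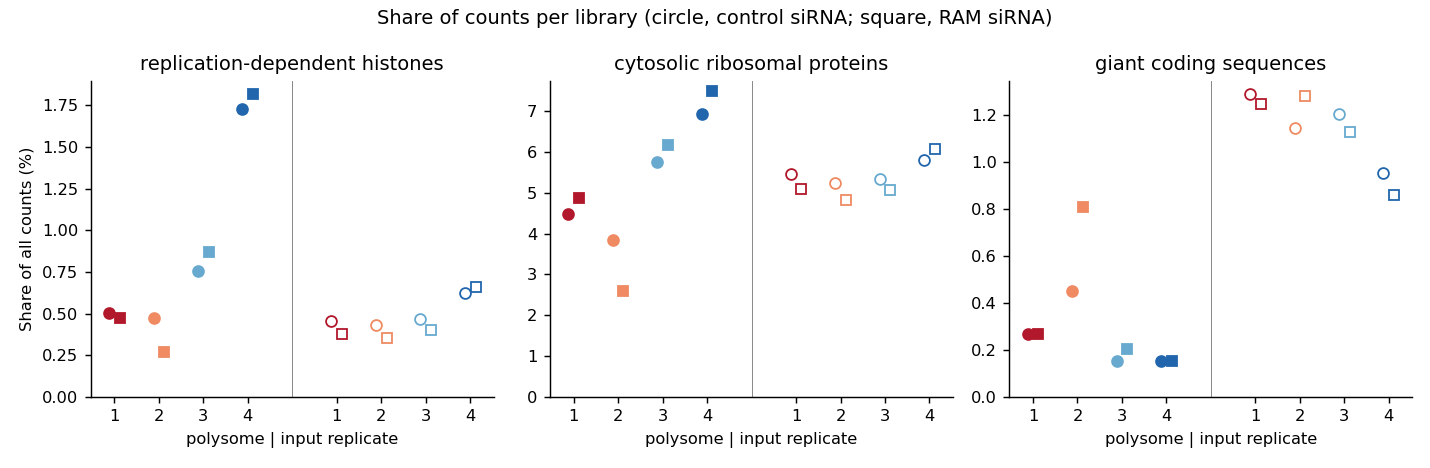
Share of counts, in percent, held by replication-dependent histones, cytosolic ribosomal proteins and giant coding sequences, 1 point a library in polysomes (filled) and input (open), with circles for control and squares for RAM siRNA, by replicate. In polysomes the histone share goes from 0.272% in RAM siRNA replicate 2 to 1.82% in RAM siRNA replicate 4, and the share of giant coding sequences from 0.807% to 0.153% in the same libraries.

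Summed over genes, coding sequences above 6000 bases held 1.93%, 2.76%, 1.25% and 1.30% of polysome counts in control replicates 1 to 4 and 1.87%, 4.10%, 1.39% and 1.19% with RAM siRNA. Coding sequences of 300 to 600 bases held 7.99%, 7.33%, 11.1% and 13.5% in controls and 9.14%, 4.99%, 13.4% and 15.2% with RAM siRNA. Both shares separated the replicate sets without overlap, in opposite directions.

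Some groups differed from their length class. The 17 basement membrane and matrix genes all passed and all had differences above 0, with a median of 1.20 against 0.55 for other genes of the same length classes. By the 2-fold rule 9 of the 17 (52.9%, against 3.03% of all genes) stood higher. Col4a1, a type IV collagen chain (chromosome 8, 11198423 to 11312826, mm10), stood at 43.2, 121, 23.7 and 33.1 CPM in polysome controls and 45.3, 279.7, 33.7 and 32.4 CPM with RAM siRNA. The sets did not overlap, but most of the difference of 1.91 came from replicate 2. Without replicate 2 the median of the list was 0.38 and without polysome RAM siRNA replicate 2 it was 0.65. Nid2, a basement membrane linker protein, and Lamc1, a laminin chain, had differences of 1.38 and 1.43, and the sets overlapped for Lamc1. Of 6 fibroblast markers 1 passed the filter, their summed polysome level was 9.67 to 16.5 CPM in replicates 1 and 2 and 18.4 to 22.2 CPM in replicates 3 and 4, and Lum was at 0 in all input libraries.

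The lists of other mRNAs translated at the endoplasmic reticulum had medians above those of their length classes, by amounts that depended on single replicates. The 35 cell surface receptors and transporters had a median of 0.53 against 0.22, and 2 of them (5.71%) stood higher by the 2-fold rule, as did 3.03% of all genes. Their median was 0.31 without polysome RAM siRNA replicate 2, 0.27 without replicate 2, 0.89 without replicate 3 and 0.28 without replicate 4. The 20 ER chaperones and folding enzymes had a median of 0.38 against 0.05, with 1 (5.0%) higher by that rule. Their median was 0.25 without polysome RAM siRNA replicate 2, 0.23 without replicate 2, 0.74 without replicate 3 and 0.12 without replicate 4. Hspa5, the ER chaperone BiP, stood at 2755, 2841, 2213 and 1516 CPM in polysome controls and 3014, 4991, 2086 and 1402 CPM with RAM siRNA. All 4 libraries of replicates 1 and 2 were above those of replicates 3 and 4, a difference of 0.89 against 0.10 in input. The 21 sterol synthesis genes had a median of 0.33 against -0.12 in polysomes and 0.20 in input, where all 21 lay above 0. Without replicate 3 their polysome median was 0.62.

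**Figure D5:**
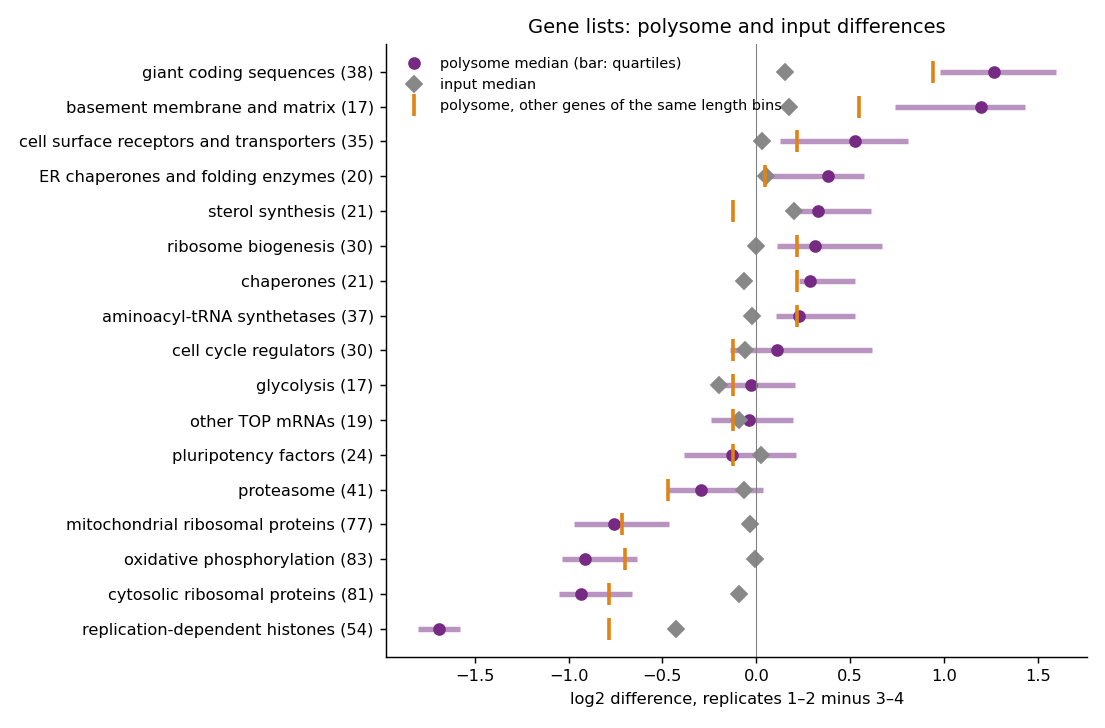
Median log2 difference, replicates 1 and 2 minus replicates 3 and 4 (horizontal axis), of 17 gene lists (vertical axis, members past the filter in parentheses). Circles are polysome medians with bars at the quartiles, diamonds are input medians and ticks are polysome medians of other genes in the same coding length classes. Histones lie at -1.69 against -0.78 for their length classes and basement membrane genes at 1.20 against 0.55, while most other lists lie near the value of their length.

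Terminal oligopyrimidine (TOP) mRNAs other than ribosomal proteins, which share the translational control of ribosomal protein mRNAs, stood apart from them as a group. The 19 listed genes had a median of -0.04, against -0.12 for their length classes, and its sign was not stable, at -0.13 without replicate 3 and 0.16 without replicate 4. Eef1a1, the elongation factor that delivers aminoacyl-tRNA, stood at 8359, 7180.0, 6980.3 and 7478 CPM in polysome controls and 6834, 7828, 5665 and 7092 CPM with RAM siRNA, with overlapping sets and a difference of 0.15. Pabpc1, the cytoplasmic poly(A)-binding protein with 1911 coding bases, stood higher in replicates 1 and 2 by 1.01, the 1 call in the list. Naca, a subunit of the nascent polypeptide-associated complex, stood lower at -0.73. Its annotated longest coding sequence of 6564 bases is that of a muscle isoform, which shows a limit of taking 1 length for each gene.

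The same order by length held inside lists whose medians were near 0. Across 24 pluripotency factors, with a median of -0.13 against -0.12 for their length classes, the rank correlation with coding length was 0.810. Tcl1, an Akt coactivator of 582 coding bases, stood lower at -1.12, and Rif1, a telomere and replication timing protein of 7281 coding bases, higher at 1.49. Pou5f1, which encodes Oct4, stood at 690.1, 566, 764 and 1005 CPM in polysome controls and 648, 358, 802 and 975 CPM with RAM siRNA. Its sets did not overlap, at a difference of -0.66 against 0.03 in input. The rank correlation was 0.844 over 41 proteasome subunits and 0.915 over 17 glycolytic enzymes, whose medians were -0.30 and -0.03. Leaving out 1 replicate at a time gave -0.48 (without replicate 1) to -0.09 (without replicate 4) for the proteasome and -0.06 (without replicate 3) to 0.07 (without replicate 4) for glycolysis.

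Of the remaining lists, 30 ribosome biogenesis genes had a median of 0.31, 37 aminoacyl-tRNA synthetases 0.23, 21 chaperones 0.29, 10 genes of RNMT-RAM and capping 0.45 and 315 zinc finger genes of the Zfp names 0.24. Among these, 2 (6.67%), 1 (2.7%), 0, 0 and 9 (2.86%) genes stood higher by the 2-fold rule, and 0, 0, 0, 0 and 4 (1.27%) lower. Over all genes tested the shares were 3.03% and 3.32%, so only the ribosome biogenesis list had a higher share. Other genes of the same length classes had medians of 0.21 for the Zfp list and 0.22 for the 4 others. The capping list thus lay above its length classes, and without 1 replicate its median was 0.39 (without replicate 2) to 0.51 (without replicate 1). Medians were 0.18 for 21 lysosomal proteins and 0.11 for 30 cell cycle regulators. They were 0.08 for 21 actomyosin and YAP or SRF target genes, of which 5 (23.8%) stood higher by the 2-fold rule. For 52 translation initiation factors the median was -0.03, and 2 (3.85%) stood higher, near the share of all genes. The 20 genes of the ATF4 stress response had a median of -0.03 and the 22 immediate early genes -0.19, with 0 of either past the rule. Several of these small medians turned on 1 replicate. The lysosomal median was 0.61 without replicate 3, -0.08 without replicate 4 and 0.08 without polysome RAM siRNA replicate 2, and without replicate 3 or replicate 4 that of initiation factors was -0.13 or 0.11. In the same order the values were -0.16 or 0.08 for the ATF4 response, -0.02 or 0.27 for actomyosin genes, 0.17 or 0.23 for cell cycle regulators, -0.06 or -0.11 for immediate early genes and 0.14 or 0.53 for chaperones.

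Transcripts without a coding sequence showed mixed differences. Of processed pseudogenes 335 passed, with a median of -0.44. By the 2-fold rule 48 (14.3%) stood lower and 1 (0.299%) higher, against 3.32% and 3.03% of all genes. The 41 named after a ribosomal protein had a median of -0.98, near that of their parents, and the other 294 a median of -0.40. Reads of a pseudogene and its parent can be shared, so these values are uncertain. The 86 long intergenic RNAs had a median of 0.06, with 8 (9.3%) higher and 1 (1.16%) lower. Leaving out 1 replicate gave -0.09 to 0.33 for the long intergenic RNAs. The 2 mitochondrial rRNAs had a median of -0.59, and -1.08 without replicate 1 and -0.22 without replicate 2.

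Some small noncoding classes had medians as large as those of the short or long mRNAs, from few genes. The 11 genes annotated as miRNA had a median of -1.10, with 5 lower and 1 higher by the 2-fold rule, and -0.59 without replicate 4. The 5 small structured noncoding RNAs that passed, of 14 listed, had a median of -0.84, with 2 lower, and -0.25 without replicate 4. The 6 snRNA genes had a median of -0.56, with 1 lower. The 14 genes annotated as TEC, transcripts still to be experimentally checked, had a median of 0.95, with 3 higher.

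Nuclear long noncoding RNAs, present here at low polysome levels, had 11 of 14 members past the filter and a median of 0.46, or 0.89 without replicate 3. Neat1, the paraspeckle scaffold RNA, stood at 7.87, 6.06, 5.08 and 2.21 CPM in polysome controls and 8.92, 10.6, 6.01 and 2.06 CPM with RAM siRNA, without overlap and with a difference of 1.10. Its input level was 83.6 to 170.0 CPM, with overlapping sets and a difference of -0.02. Rpph1, the RNA of RNase P, was lower in replicates 1 and 2 at -1.46, with polysome levels of 40.9, 17.3, 41.2 and 111 CPM in controls and 38.0, 13.3, 42.7 and 106 CPM with RAM siRNA. Replicate 4 was highest for Rpph1, and the lowest library of replicates 3 and 4 was only just above the highest of replicates 1 and 2.

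Input showed the replicate difference only weakly. In the edgeR quasi-likelihood test over 8 input libraries, 45 of 12608 genes were higher in replicates 1 and 2 (0.357%) and 8 lower (0.0635%), with 1276 genes at an unadjusted p under 0.05. Same-numbered libraries of the 4 occasions are not independent, so these p-values are too small. With the counts summed per occasion edgeR called 0 genes in either direction (0% each) with 451 at an unadjusted p under 0.05, and DESeq2 called 25 higher and 2 lower. With the replicate as a block, limma called 10 higher and 0 lower. Without replicate 1 or without replicate 2 edgeR called 0 genes, and without replicate 3 or replicate 4 it called 3095 and 1612. Leaving out single libraries gave 1 to 56 calls. The first principal component of input, with 41.7% of the variance, separated the siRNAs. On the second, with 24.1%, replicate 3 scored -15.8 (control) and -12.4 (RAM siRNA). Replicate 4 scored 13.3 and 24.1, and replicates 1 and 2 lay between at -2.95 to -1.05. In input, replicates 3 and 4 thus lay on opposite sides of replicates 1 and 2 on that component. In input 297 genes (2.36%) were higher and 240 (1.9%) lower without overlap at any size.

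The weak input difference pointed the same way. Of the 391 genes higher in polysomes, 338 had an input difference above 0, with a median of 0.14, and 27 were called higher in input. Of the 428 lower genes 416 were tested in input, 353 were below 0, the median was -0.12 and 3 were called lower. Over all 12608 genes tested in input, 5905 lay above 0 and 6703 below 0, with 45 called higher and 8 lower. Conversely, 44 of the 45 genes called higher in input lay above 0 in polysomes and all 8 called lower lay below 0. Of all 12896 genes tested in polysomes, 6078 lay above 0 and 6818 below 0. Of the 44 coding genes called higher in input, 21 (47.7%) exceeded 3000 coding bases, against 14.6% of all coding genes tested. Over 12608 genes the rank correlation between the polysome and input differences was 0.385, a description, since each polysome library shares its culture with an input library.

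Itga1, the collagen-binding integrin alpha 1 chain (chromosome 13, 114953096 to 115101964, mm10), had 1 of the largest input differences among the called genes. It stood at 35.1, 34.6, 19.5 and 19.8 CPM in input controls and 25.2, 29.5, 12.7 and 11.5 CPM with RAM siRNA. The sets did not overlap within either siRNA or across them, with a log2 difference of 0.99 ± 0.10 (SE; edgeR adjusted p = 0.00583). Summed per occasion, its edgeR adjusted p was 0.183, and with the replicate block in limma it was 0.0346. In polysomes its difference was 1.58. The other long mRNAs called higher in input included Sptan1, the alpha-II spectrin, and Ranbp2, the nuclear pore SUMO ligase. Their differences were 0.80 and 0.67 (edgeR adjusted p = 0.0150 and 0.0251 over 8 libraries). Summed per occasion, edgeR called neither.

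Among the 8 genes lower in input were 3 histones. Hist2h2ab stood at 18.1, 16.7, 24.2 and 21.8 CPM in input controls and 13.0, 12.5, 17.9 and 19.1 CPM with RAM siRNA, a log2 difference of -0.47 ± 0.08 (SE; edgeR adjusted p = 0.0413, and 0.879 summed per occasion). Each siRNA separated the sets, though the 8 libraries together overlapped. Over all 54 histone genes the input median was -0.43 and 53 lay below 0, as did 6703 of all 12608 genes tested. Cd24a, a small surface glycoprotein of 297 coding bases, had an input difference of -0.68 and Ldha, lactate dehydrogenase A, -0.48. Both were called by edgeR over 8 libraries and neither was called summed per occasion.

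As summed shares, none of 53 classes and lists separated the input sets. The smallest exact p was 0.0571 (adjusted 0.649), reached by 4 of them, including coding sequences above 6000 bases at means of 4.87% and 4.37% and the giant coding sequences at 1.24% and 1.04%. The smallest p that 4 against 4 libraries allow is 0.0286. The 391 genes chosen as higher in polysomes did separate input as a sum. They held 5.14% to 6.23% of counts in replicates 3 and 4 and 6.40% to 6.61% in replicates 1 and 2. The genes chosen as lower in polysomes did not separate input. They held 3.65% to 4.66% in replicates 3 and 4 and 3.51% to 3.89% in replicates 1 and 2. Both lists were chosen by polysome libraries of the same cultures, so these sums are a description with no test.

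Set against its own input, every polysome library of replicates 3 and 4 held few long mRNAs. The median log2 ratio of polysome to input level was compared between coding sequences above 6000 bases (342 genes) and of 300 to 600 bases (1248 genes). The first minus the second was -0.59, -0.01, -1.61 and -1.65 in control replicates 1 to 4 and -0.88, 0.85, -1.88 and -1.83 with RAM siRNA. Only RAM siRNA replicate 2 held relatively more of the long class than of the short class, and control replicate 2 was near balance. Replicates 3 and 4 lay close together at -1.61 to -1.88, and replicates 1 and 2 spread from -0.88 to 0.85. The class of 900 to 1500 bases had ratios of 0.06 to 0.37 in all 8 cultures, the narrowest range of the 7 classes.

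The siRNA effect in polysomes was compared between the replicate sets by an interaction term, which the choice of sets did not use. edgeR called 0 of 12896 genes (0%), with 42 at an unadjusted p under 0.05. With the replicate as a block edgeR called 0, with 518 at an unadjusted p under 0.05, and DESeq2 without a block also called 0. Fits without the block leave out the pairing of same-numbered libraries, and 0 calls do not show that the siRNA effect was alike. DESeq2 with the block, added after the data were seen, called 1, Lars2, the mitochondrial leucyl-tRNA synthetase (chromosome 9, 123366927 to 123462666, mm10). Lars2 stood at 84.0, 49.4, 225 and 379 CPM in polysome controls and 46.3, 66.2, 51.3 and 85.7 CPM with RAM siRNA, against 32.2 to 44.9 CPM in input. The high values were those of control replicates 3 and 4. Gm42418, an RNA gene that overlaps the 45S rRNA unit, showed a like pattern at 574, 159, 1711 and 2277 CPM in polysome controls and 215, 287, 293 and 594 CPM with RAM siRNA. Whether rRNA-derived reads have a part in the Lars2 values was not tested.

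Ramac itself stood at 6.00, 6.46, 8.62 and 13.8 CPM in polysome controls and 0.915, 0.273, 2.33 and 2.52 CPM with RAM siRNA. Its siRNA effect in polysomes was -3.39 in replicates 1 and 2 and -2.21 in replicates 3 and 4. The difference between these effects was -1.18 ± 0.60 (SE; edgeR adjusted p = 1), rests on 5 to 45 counts in the RAM siRNA libraries and did not pass the test. In input Ramac stood at 10.5 to 11.97 CPM in controls and 2.76 to 3.26 CPM with RAM siRNA in all 4 replicates.

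The length slope of the RAM siRNA library minus that of its control was -0.05 and 0.22 in replicates 1 and 2 and -0.08 and -0.08 in replicates 3 and 4. Replicate 2 alone was positive, so no direction common to the 4 replicates was seen.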

How the data were processed

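Total RNA after rRNA removal (Ribo-Zero Gold) was sequenced from input and polysome RNA of the same cultures. The submitters' processing notes name bcl2fastq, STAR 2.5.1b, HTSeq, edgeR and mm10. The deposited values are whole-number counts of reads per gene that the authors left unnormalized. The counting settings for strand and for reads that match several genes are not given in the sources used here, so gene copies and antisense partners are uncertain. Columns of other samples in the table numbered 0. Of 46983 gene IDs, 46488 matched GENCODE M21 (mm10), which gave symbols, biotypes and the longest coding sequence of each gene.

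Samples were grouped from their labels. The replicate sets, gene lists and tests were chosen with earlier results of these data known. Genes were kept when 4 or more of the 8 libraries of a fraction reached 1 CPM, and library sizes were scaled by TMM (edgeR 4.0.16, R 4.3.3). CPM are TMM-scaled, and shares are of raw counts. Differences are log2 coefficients with siRNA as a factor. Genes were called in polysomes by a log2 difference of at least 1 and no overlap of libraries, without a test. Input and the interaction were tested with edgeR quasi-likelihood fits and Benjamini-Hochberg adjustment at 0.05. For input, limma 3.58.1 (voom, replicate block) and edgeR's likelihood ratio test were alternatives, and for the interaction edgeR with the replicate block. DESeq2 1.42.0 was an alternative for both, with other scalings, filters and left-out libraries. Scripts were tested on simulated counts. Single values used exact permutation tests (SciPy 1.17.1).

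Same-numbered control and RAM siRNA libraries deviated together, with correlations of their deviations from group means of 0.301, 0.412, 0.591 and 0.611 in input and 0.513, 0.854, 0.761 and 0.878 in polysomes, so the numbers pair the samples. The study describes biological replicates, and p-values measure the spread between these samples. Named genes were, among those whose mean reached 10 CPM and whose libraries did not overlap, the 10 largest differences in each direction and the 4 largest not protein coding. The 5 largest input calls in each direction, Ramac, the smallest interaction p and, for each list, the 2 largest, 2 smallest and up to 4 most abundant members were also named.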

Additional observations from a re-analysis of the deposited data

Results flagged for a closer look

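In 176 groups of 4 libraries (the genes named above and the class shares), 19 (10.8%) had a highest or lowest library further from the others than Dixon's 95% critical value allows, where chance flags about 5%, or 1 in 20 groups. The groups share libraries and genes, so the flags are not independent. Many of the genes were picked for large differences between the replicate sets, so the chance share of 5% need not hold for them.

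Of these, 8 were genes highest in polysome RAM siRNA replicate 2. Chd4 stood at 1209 CPM against 121 to 269 CPM in the other 3 RAM siRNA polysome libraries. Sptan1 stood at 659 CPM against 77.6 to 145, Brca2 at 608 against 69.3 to 134, and Ints1 at 483 against 55.4 to 97.4. Cenpf stood at 204 CPM against 23.6 to 46.7, Chd8 at 204 against 22.8 to 36.7, Peg3 at 32.2 against 3.15 to 4.80 and 2900026A02Rik at 8.61 against 1.60 to 2.49.

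Histone values highest in replicate 4 made up 8 more. In polysome controls Hist1h4f stood at 425 CPM against 93.1 to 149, Hist1h4c at 199.7 against 40.1 to 65.0 and Hist1h4j at 71.0 against 14.0 to 22.4. In input controls Hist1h4f stood at 204 CPM against 147 to 148. In input with RAM siRNA Hist1h4f stood at 215 CPM against 118 to 129.7, Hist4h4 at 144 against 62.7 to 73.0 and Hist1h4c at 119 against 66.5 to 74.3, and the summed histone share was 0.657% against 0.354% to 0.403%.

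The remaining 3 lay in input with RAM siRNA. The share of basement membrane and matrix genes was lowest in 1 library, at 0.594% against 0.786% to 0.796%. The share of coding sequences of 600 to 900 bases was highest in 1, at 10.8% against 9.83% to 9.97%, and Ramac was lowest in replicate 2, at 2.76 CPM against 3.22 to 3.26 CPM.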

How the results depend on the processing

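The 819 polysome genes became 3120 with a difference of at least 0.5, 524 in control libraries alone, 1744 in RAM siRNA libraries alone and 341 without polysome RAM siRNA replicate 2. Leaving out 1 replicate gave 311 to 2159. With fewer libraries no overlap is easier to meet, so the counts of these smaller fits are not comparable with 819 as sizes of the difference. The 53 input calls became 335 with no filter, 32 at 10 CPM, 129 in DESeq2, 10 with the replicate block in limma and 183 in the edgeR likelihood ratio test (added after the data were seen), and 0 to 3095 without 1 replicate or library. Summed per occasion, the count of 0 became 27 in DESeq2, and the interaction count of 0 became 1 in DESeq2 with the replicate block. Leaving out 1 replicate moved 6 medians beyond the spread between libraries. The median above 6000 bases ranged from 0.50 (without replicate 2) to 1.33, giant coding sequences from 0.61 (without replicate 2) to 1.69 and basement membrane genes from 0.38 (without replicate 2) to 1.66. Histones ranged from -2.11 to -0.95 (without replicate 4), oxidative phosphorylation subunits from -1.19 (without replicate 1) to -0.69 and processed pseudogenes from -0.66 (without replicate 1) to -0.25 (without replicate 4). The causes were not tested beyond the fewer samples these fits hold. Scaling by RLE or by library size moved the median of all genes by less than 0.1 on the log2 scale and changed no direction of these classes. None of the named genes past the 2-fold rule in polysomes, nor of the 9 class medians of the length extremes, histones, ribosomal proteins, mitochondrial ribosomal proteins and the classes just given, turned its direction under the settings run. Of the other named genes, 43 changed sign under at least 1 setting. Medians near 0 did so without 1 replicate: lysosomal proteins, long intergenic RNAs, mitochondrially encoded mRNAs, TOP mRNAs, glycolysis, initiation factors, the ATF4 response, pluripotency factors and actomyosin genes. With RLE scaling the TOP, glycolysis, ATF4 and initiation factor medians were 0.00 to 0.01. For named genes, 181 polysome values moved beyond that spread and 2814 did not, and 76 input values lost the threshold while 123 kept it. Depth limited Ramac and other genes near 1 CPM most.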
